A study of Homo sapiens with 16 samples.

Results

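This account covers 4 genes that set whether a cell leaves the G1 phase of its cycle, CCND1, CCND2, CDK6 and CDKN1B, together with a site of 8.603 kb that lies upstream of CCND1. The genes were chosen by name and the site by its Pol II cover, with earlier values of all of them from these same peak lists known, so every value below is a description and none is tested. The genes were placed by hg19 spans fixed with the member list, each taken with 2 kb before its start and 5 kb past its end. They are 4 genes of 59792 in the RefSeq table, which is on another build and was not placed. Together with the site they touch 5 of the 5902 regions of at least 5 kb, called domains here, that form when all RNA polymerase II (Pol II) peaks are joined across gaps of up to 5 kb.

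Pol II was mapped by chromatin immunoprecipitation and sequencing with an antibody to its subunit RPB1 in wild type hTERT RPE-1 cells, which come from human retinal pigment epithelium and carry added telomerase. All cells, controls included, were first held for 48 h in 0.1% serum. Merbarone, which blocks the catalytic cycle of DNA topoisomerase II, was given at 200 uM for 30 min (3 libraries) or for 1 h (2 libraries). The controls were 3 libraries after 30 min of DMSO and 3 untreated libraries, and topoisomerase II alpha (TOP2A) was mapped in 2 untreated libraries. Each condition had 1 peak list for all its libraries, with the vehicle and untreated Pol II libraries in 1 control list, and the labels do not say whether libraries came from separate cultures. The lists give peak positions with no height, score or read depth, so no value has a spread between replicates, and wider cover cannot be told apart from a deeper library. The control list holds 87911 Pol II peaks over 42.8 Mb, the 30 min list 85990 over 47.7 Mb (ratio 1.11) and the 1 h list 81816 over 58.3 Mb (ratio 1.36). The limits behind the lists were unlike, since their narrowest peaks are 136, 150 and 159 bp and their narrowest gaps 1, 1 and 38 bp. TOP2A has 1840 peaks.

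The D-type cyclins, products of CCND1 and CCND2 among others, bind and switch on the kinases CDK4 and CDK6. The active complexes phosphorylate the retinoblastoma protein, which frees E2F factors to turn on genes for DNA synthesis. The product of CDKN1B, p27, binds cyclin-CDK complexes and inhibits them, and it is known to build up in cells deprived of serum. Cyclin genes of this class are in turn known to respond to growth factors. Topoisomerase II relieves the supercoils that build up around a transcribing polymerase, which is the setting of the study's question on merbarone.

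The 4 genes had 3 layouts in the control list. CCND1 and CDKN1B lay under Pol II peaks from before the start to beyond the end, CDK6 had peaks at its start and past its end with almost none between, and CCND2 had a single short peak at its start. These layouts were the same in the lists after merbarone, and the larger differences lay past the end of CCND1, around both ends of CDK6 and at the site upstream of CCND1.

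In a window of 500 bp on either side of the gene start, Pol II peaks covered 100% in each of the 3 lists for CCND1 and for CDKN1B. For CDK6, Pol II peaks lay over 93.0% of that window in control, over 81.8% after 30 min and over 100% after 1 h. The direction at 30 min depends on the window, since with 250 bp on either side of the start of CDK6 control peaks lay over 94.2% and those at 30 min over 100%. For CCND2 the shares in the wider window were 31.2%, 39.2% and 42.6%. In that window the order was CCND1 level with CDKN1B, then CDK6, then CCND2 in control and at 30 min, and at 1 h CDK6 joined the genes with full cover. With 250 bp it had joined them at 30 min already. In the rest of the gene CCND1 was covered over 99.4%, 99.7% and 100%, and CDKN1B over 96.5%, 89.5% and 100%. CDK6 was covered there over 2.61%, 2.78% and 2.44%, and CCND2 held no Pol II peak there in any list.

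**Figure D1:**
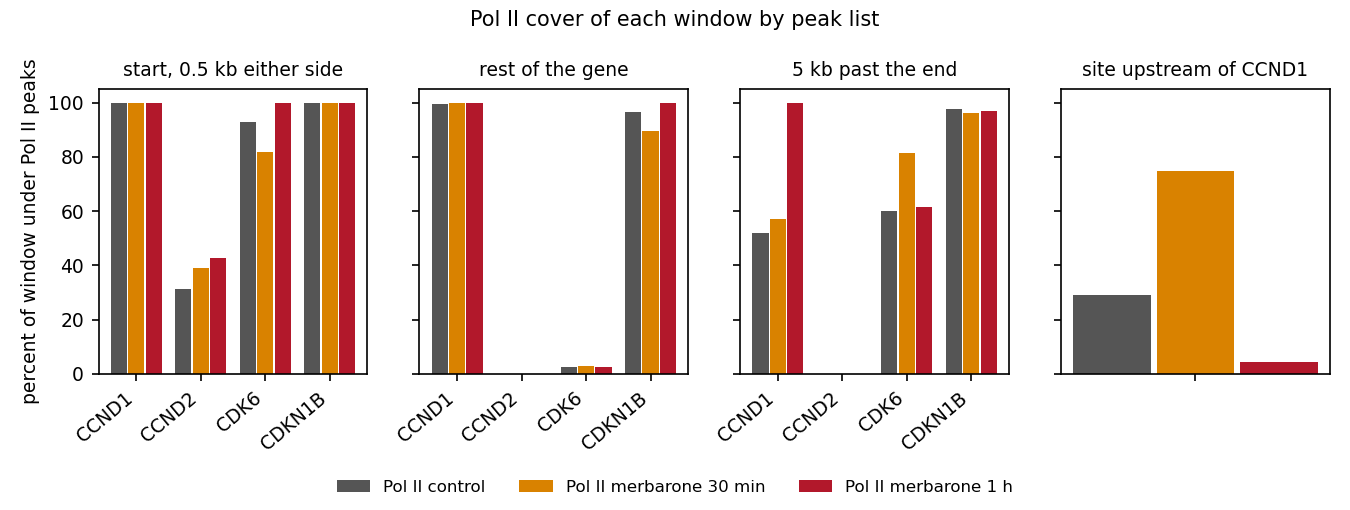
Percent of each window under Pol II peaks (vertical axis) for the 4 genes at the start, in the rest of the gene and in the 5 kb past the end, and for the site upstream of CCND1, with 1 bar per peak list and no error bars since each condition has 1 list. Cover past the end of CCND1 stands at 51.9% in control and 100% at 1 h, and the site stands at 29.0%, 74.9% and 4.50%.

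CCND1, which encodes cyclin D1, spans 13.37 kb on chromosome 11 from 69455873 to 69469242 on the forward strand. The control list covered it with 3 peaks no more than 57 bp apart, the widest of 13423 bp from 2893 bp before the start to 10529 bp after it, on chromosome 11 from 69452980 to 69466402. At 30 min the widest peak was 14524 bp, from 69453010 to 69467533. At 1 h a single peak of 21995 bp ran from 69453208 to 69475202. Its leading edge, 2665 bp before the start, was close to those at 2893 bp in control and 2863 bp at 30 min, while its far edge lay 5.96 kb past the gene end. The widest control and 30 min peaks both stopped inside the gene, 10529 and 11660 bp after its start. For 30 min this depends on the limits of the lists. Joined across gaps of up to 37 bp, as in the 1 h list, the widest 30 min peak was 18390 bp and ran to 2157 bp past the gene end. The widest control peak stayed at 13423 bp.

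Control peaks already covered 99.4% of the CCND1 span and the lists hold no peak height, so cover could show no gain inside the gene, and the differences it could show lay past the end. Of the 5 kb past the end, control peaks covered 51.9%, those at 30 min 56.9% and those at 1 h 100%. In steps of 1 kb, the first 2 kb past the end were covered over 100% in every list. From 3 to 4 kb past the end the cover was 0% in control, 13% at 30 min and 100% at 1 h, and from 4 to 5 kb it was 0%, 15% and 100%. In control a gap of 2430 bp stood there, from 15965 to 18396 bp after the gene start. At 30 min 3 short peaks of 150 to 195 bp stood in it that overlapped no control peak, and the 1 h peak ran across all of it.

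Peaks resumed beyond the gap in all 3 lists. Over 20 kb past the end, control cover was 57.3%, that at 30 min 62.5% and that at 1 h 74.9%, so the lists were closer over the longer stretch. Over 10 kb the cover was 65.7%, 60.0% and 97.1%, with 30 min below control, so the direction at 30 min depends on the window. In the RefSeq table of GRCh38 the next genes past the end of CCND1 are LOC124902704 and LTO1. Immunoprecipitated DNA carries no strand, so Pol II that had passed the end of CCND1 cannot be told apart from Pol II on those genes. Over the gene with its flanks the change from control was 1.45 points at 30 min and 12.2 points at 1 h, and over the gene span alone the change at 1 h was 0.591 points.

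**Figure D2:**
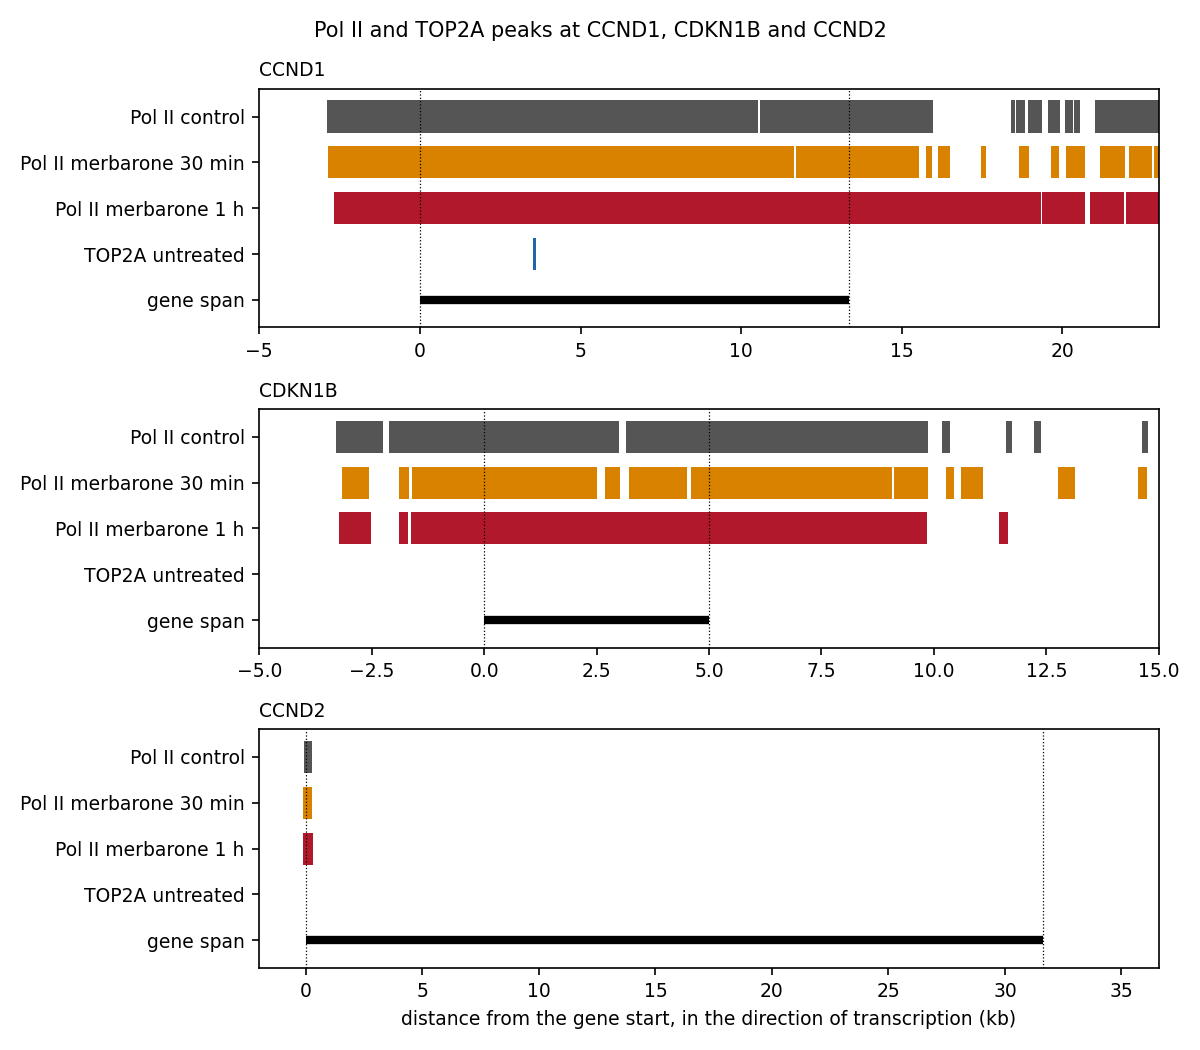
Peaks of the 3 Pol II lists and of TOP2A (rows) by distance from the gene start in kb (horizontal axis, with its own scale in each panel) at CCND1, CDKN1B and CCND2; the black line is the gene span, dotted lines mark its start and end, and very short peaks are widened to be visible. The 1 h peak at CCND1 runs to 5.96 kb past the gene end across a gap in control, while CCND2 has 1 peak of 312 to 426 bp at its start in each Pol II list.

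The site upstream of CCND1 lies on chromosome 11 from 69188824 to 69197426, with its nearer edge 258.447 kb before the gene start. No hg19 annotation was used here, so what lies at the site is not given, and no measurement in these lists ties it to CCND1. In control it held 12 short peaks of 136 to 407 bp that covered 29.0% of it. At 30 min it held 16 peaks of up to 993 bp that covered 74.9%. At 1 h it held a single peak of 387 bp, from 69193316 to 69193702, which covered 4.50%. The counts and widths depend on the limits of the lists. With those of the 1 h list, control held 6 peaks of up to 586 bp and 30 min held 11 of up to 1981 bp, with 26.6% and 73.9% covered.

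The 30 min peaks lay over most of the control peaks and over much of the space between and around them. Of the 12 control peaks, 1 overlapped no 30 min peak, where 26.1% of the whole control list overlapped none. The 30 min peaks covered 86.8% of the bases under control peaks at the site, plus 4278 bp with no control peak, some of it outside the outermost control peaks. The 1 h peak covered 5.37% of the bases under control peaks. The ratio of cover to control was 2.58 at 30 min and 0.155 at 1 h. Of the 16 peaks at 30 min, 8 overlapped no control peak, where 34.1% of that whole list overlapped none. Of the same 16, 15 overlapped no 1 h peak, where 23.1% of that whole list overlapped none. The outer limits of the site are those of its 30 min peaks, which favours that list. Within the limits of the control peaks, from 69189550 to 69196032, control cover was 38.5%, that at 30 min 81.7% and that at 1 h 5.97%. With only peaks of at least 300 bp counted, the change at 1 h was -4.66 points in place of -24.5, since most control peaks there were narrower, and that at 30 min was 41.2 points in place of 45.9.

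**Figure D3:**
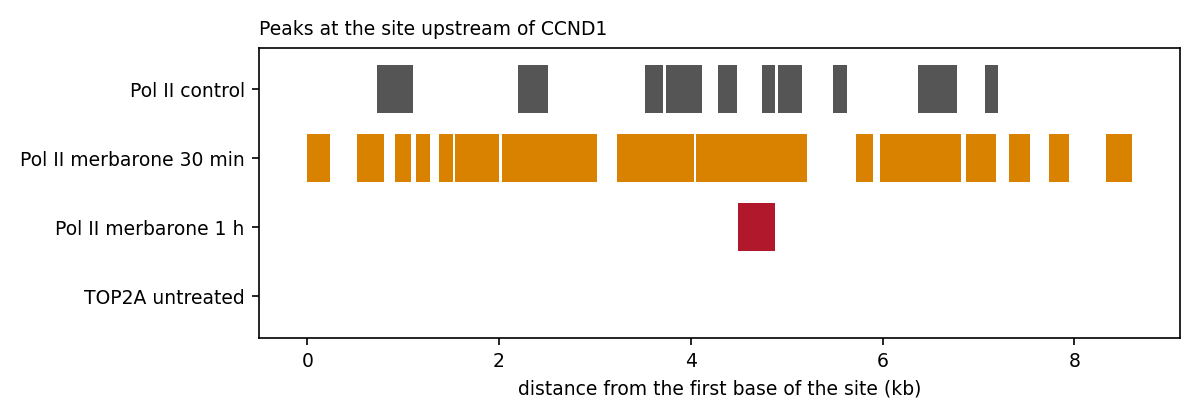
Peaks of the 3 Pol II lists and of TOP2A (rows) by distance in kb from the first base of the site upstream of CCND1 (horizontal axis). In the lists as deposited, control has 12 short peaks, 30 min has 16 that cover 74.9% of the site, 1 h has a single peak of 387 bp, and TOP2A has none.

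Among all 5902 domains the site had the 6th largest gain from control to 30 min and the lowest difference between 1 h and 30 min, at -70.4 points. Only 13 domains (0.22%) stood at least 10 points above control at 30 min and at least 10 points below it at 1 h. The site was chosen for this course, so its place among them is a description. The domain most like it over the 3 lists lay on chromosome 9 from 132996702 to 133003315, with 19.0%, 61.8% and 12.7% covered, at a distance of 18.4 points. The next were on chromosome 1 from 183110086 to 183118626, at 22.4 points, and on chromosome 12 from 32936571 to 32941788, at 24.7 points.

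Other Pol II sites on the same side of CCND1 differed in their course. Within 400 kb before the gene, counting peaks of the 3 lists joined across up to 1 kb, 9 sites were found including the gene's own, of which 6 held peaks in all 3 lists. The nearest to the gene, 196.674 kb before its start, held 1775 bp of control peaks, 1299 bp of 30 min peaks and 1494 bp of 1 h peaks. Another, 220.061 kb before the start, held 543, 641 and 558 bp. A site 287.959 kb before the start had no control peak, with 696 bp at 30 min and 898 bp at 1 h. These 3 sites, which lie on either side of the 8.603 kb site, kept peaks at 1 h. At 2 further sites no 1 h peak was present. That 313.981 kb before the start held 312 bp of peaks at 30 min alone, and that 203.515 kb before the start held 167 bp of peaks in control alone. Like the 8.603 kb site, those 313.981 and 220.061 kb before the start were covered most at 30 min.

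CCND2, which encodes cyclin D2, spans 31.621 kb on chromosome 12 from 4382902 to 4414522 on the forward strand. Each Pol II list held a single peak in the gene and its flanks, and all 3 peaks lay across the gene start. The control peak of 312 bp ran from 4382837 to 4383148, that is, from 65 bp before the start to 246 bp after it. The peak was 392 bp wide at 30 min and 426 bp at 1 h, and at 1 h it reached 311 bp after the start. Neither the gene beyond this peak nor the 10 kb past its end held any peak in any list. The ratio of cover to control was 1.26 at 30 min and 1.37 at 1 h, where the whole lists had 1.11 and 1.36. The RefSeq table of GRCh38 has CCND2-AS1 across the start of CCND2, so the peak cannot be assigned to either of them.

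CDK6, a kinase that D-type cyclins switch on, spans 231.707 kb on chromosome 7 from 92234235 to 92465941 on the reverse strand. The RefSeq promoter table of GRCh38 holds 2 starts for it, 2614 bp apart. Both promoters are shown because Pol II lay over this stretch in every list, as 300 bases each, from 250 before the start to 50 after it, on chromosome 7 from 92836524 to 92836823 and from 92833910 to 92834209, reverse strand, GRCh38. The capitals mark GGGCGG, the box bound by SP1, in the promoter of the upstream start and ACGTCA, part of the cyclic AMP response element, in that of the downstream start, read on either strand.
CDK6 upstream start: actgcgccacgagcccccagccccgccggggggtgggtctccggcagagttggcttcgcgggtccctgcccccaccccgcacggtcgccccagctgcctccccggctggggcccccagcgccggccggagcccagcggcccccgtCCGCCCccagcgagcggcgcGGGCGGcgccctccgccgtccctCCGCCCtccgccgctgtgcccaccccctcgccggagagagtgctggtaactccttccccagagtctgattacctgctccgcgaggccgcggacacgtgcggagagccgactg
CDK6 downstream start: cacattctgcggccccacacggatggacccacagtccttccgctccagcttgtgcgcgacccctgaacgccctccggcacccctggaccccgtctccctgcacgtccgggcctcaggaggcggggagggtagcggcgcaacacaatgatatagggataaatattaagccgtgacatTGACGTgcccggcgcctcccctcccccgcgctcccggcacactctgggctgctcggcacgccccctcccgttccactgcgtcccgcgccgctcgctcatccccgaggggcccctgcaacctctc

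Of 35116 promoters of this length, 45.0% hold GGGCGG on either strand and 7.98% hold ACGTCA. Of the other motifs searched on both strands, the TATA box TATAAA is in 11.5%, the NF-Y box CCAAT in 34.6%, the AP-1 site TGAGTCA in 4.95% and the E2F site TTCGCGC in 2.24%. The promoter of the upstream start of CDK6 held GGGCGG at 3 places and none of the others, and that of the downstream start held ACGTCA once. Their GC content was 78% and 68.7%, against a median of 58.7% over all promoters.

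At the start of CDK6, control had 4 peaks with gaps of no more than 142 bp, from 625 bp before the start of the span to 3918 bp after it. At 30 min there were 5 peaks from 318 bp before to 4409 bp after. These counts depend on the limits of the lists. Joined across gaps of up to 37 bp, as in the 1 h list, the widest peak there was 2321 bp in control and 4244 bp at 30 min. At 1 h there was a single peak of 4977 bp, on chromosome 7 from 92461555 to 92466531, from 590 bp before to 4386 bp after. The stretch held by Pol II was thus of similar length in the 3 lists, 4.544, 4.728 and 4.977 kb, and contained both RefSeq starts if their distance is the same on hg19. The far edge of the stretch and the gaps within it both differed. Peaks covered 94.7% of the stretch in control, 92.0% at 30 min and 100% at 1 h. Of the first 5 kb of the gene, control peaks covered 73.6%, those at 30 min 80.6% and those at 1 h 87.7%. At 30 min the 1.5 kb before the start window held no peak, where control peaks covered 8.33% and the 1 h peak 6%.

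Inside CDK6 Pol II peaks were few, and few places held a peak in all 3 lists. Between 5 kb after the start and 5 kb before the end, a stretch of 221.707 kb, 7 control peaks covered 1.11%, 7 peaks at 30 min 0.951% and 5 peaks at 1 h 0.626%. Of these, 4 of the 7 control peaks, 3 of the 7 at 30 min and 4 of the 5 at 1 h overlapped a peak of another Pol II list. Over the whole lists, 26.1% of control peaks had no partner at 30 min and 22.3% none at 1 h. Of all 30 min peaks, 34.1% had none in control and 23.1% none at 1 h, and of all 1 h peaks 44.1% had none in control. The share with a partner in either other list was not computed, so nothing is read from these counts. Counting peaks of the 3 lists joined across up to 1 kb, 12 sites were found over the gene and its flanks, and 3 held peaks in all 3 lists. These were the start, the end and a site 140.228 to 141.246 kb after the start, with 1000 bp of control peaks, 815 bp of 30 min peaks and 785 bp of 1 h peaks. Of the others, 3 held a peak in control alone, 2 at 30 min alone and 1 at 1 h alone, all 318 bp wide or less. A neighbouring site at 137.796 to 139.131 kb held 229 bp of control peaks and 695 bp of 30 min peaks, with none at 1 h.

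**Figure D4:**
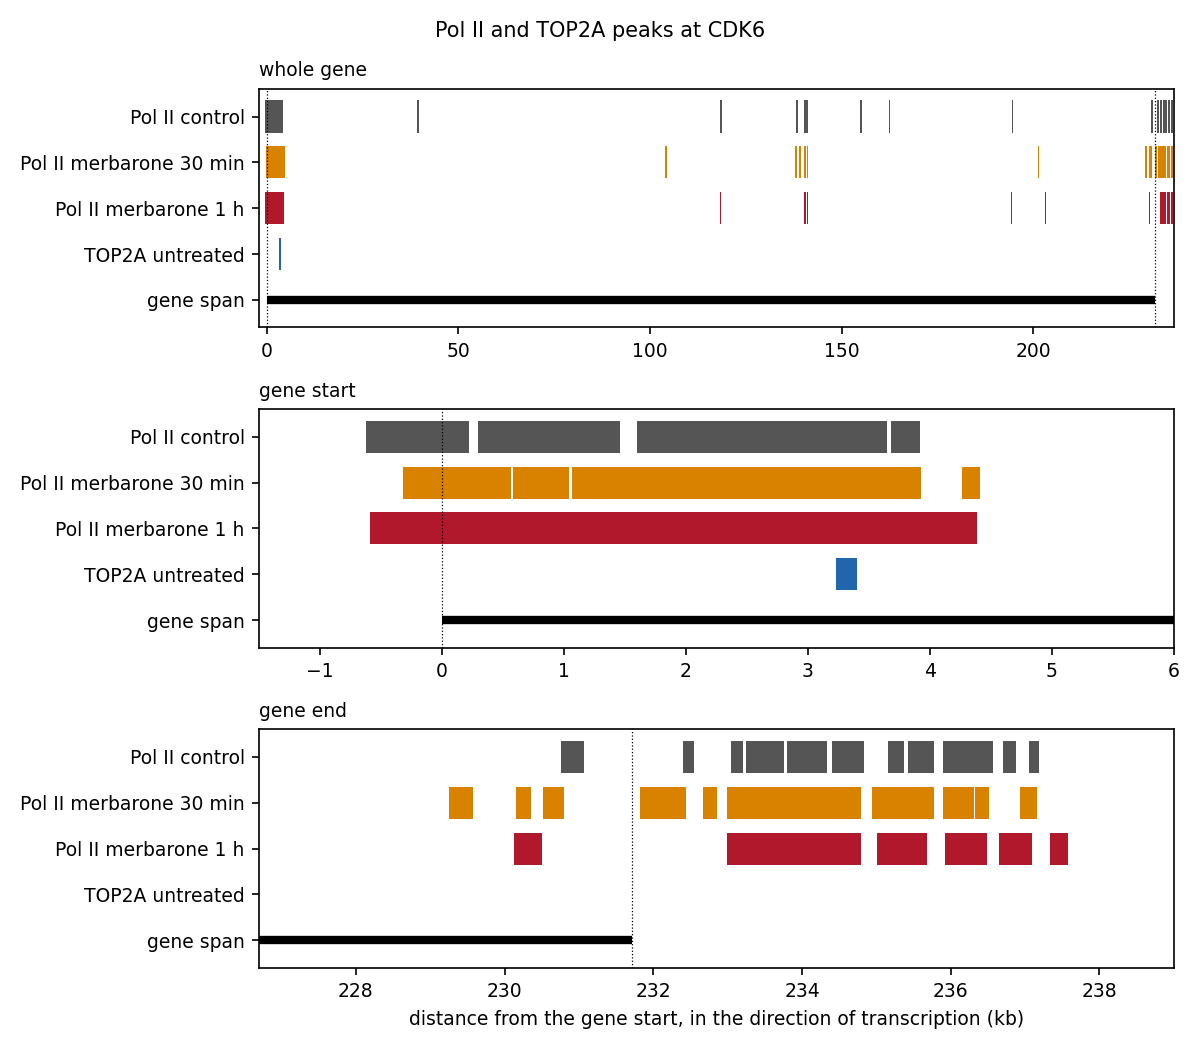
Peaks of the 3 Pol II lists and of TOP2A (rows) by distance from the start of CDK6 in kb (horizontal axis) over the whole gene, at its start and at its end; the black line is the gene span, dotted lines mark its start and end, and short peaks in the top panel are widened to be visible. Pol II stands in a stretch of 4.544 to 4.977 kb at the start in each list, few peaks follow inside the gene, and the 5 kb past the end were covered most at 30 min.

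Past the end of CDK6 the largest cover was at 30 min. Of the 5 kb past the end, 9 control peaks covered 60.1%, 6 peaks at 30 min covered 81.5% and 4 peaks at 1 h covered 61.7%. A peak of 613 bp at 30 min lay just past the gene end, from 231825 to 232437 bp after the start, where it overlapped a control peak of 140 bp and no 1 h peak. The widest peak of that window was 1814 bp at 30 min and 1794 bp at 1 h, at nearly the same place, and control held 4 peaks of 150 to 533 bp there. The domain that holds this end, on chromosome 7 from 92228360 to 92236689, was covered over 43.6%, 61.2% and 49.1%. In the RefSeq table of GRCh38 the genes past the end of CDK6 are LOC105375397 and FAM133B. CDK6-AS1 lies across the start of CDK6, and LOC112268009 and RNU6-10P also overlap CDK6. Pol II on CDK6 and on these genes cannot be told apart.

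CDKN1B, which encodes the inhibitor p27, spans 5.004 kb on chromosome 12 from 12870302 to 12875305 on the forward strand. Its promoter is shown because the window around the gene start lay wholly under Pol II peaks in the 3 lists, as 300 bases on chromosome 12 from 12717118 to 12717417, forward strand, GRCh38. The capitals mark CCAAT, the box bound by NF-Y, and GGGCGG, read on either strand.
CDKN1B: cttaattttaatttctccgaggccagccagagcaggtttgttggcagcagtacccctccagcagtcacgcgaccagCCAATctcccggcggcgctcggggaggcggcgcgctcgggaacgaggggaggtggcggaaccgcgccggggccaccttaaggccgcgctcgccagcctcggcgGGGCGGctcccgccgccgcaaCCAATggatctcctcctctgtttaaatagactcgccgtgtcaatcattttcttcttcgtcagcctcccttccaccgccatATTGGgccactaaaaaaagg

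The promoter of CDKN1B held CCAAT at 3 places and GGGCGG at 1, and none of the other motifs searched. Its GC content was 62.3%. The promoters of CCND1 and CCND2 are not shown.

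With its flanks CDKN1B lay under control peaks over 97.6% of its length, under 30 min peaks over 93.0% and under 1 h peaks over 97.1%. The control list had 3 peaks there, of 4838, 286 and 6719 bp, on chromosome 12 from 12868179 to 12880180. At 30 min there were 6 peaks, the widest of 4452 bp from 12874911 to 12879362. At 1 h a single peak of 11463 bp from 12868679 to 12880141 ran across the gene, with another of 197 bp before it. The far edge barely differed, at 9878, 9877 and 9839 bp after the gene start. The 5 kb past the end were covered over 97.5%, 96.2% and 96.7%. Over 10 kb these shares were 54.8%, 60.1% and 50.2%, so there too the direction at 30 min depends on the window.

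Of the gene span itself, control peaks covered 96.8%, those at 30 min 90.5% and that at 1 h 100%. All 6 peaks at 30 min and both at 1 h overlapped control peaks, where 34.1% and 44.1% of the whole lists overlapped none. Since control peaks covered 97.6% of the gene with its flanks, a peak without a partner had almost no room, and nothing is read from this. Of the 1.5 kb before the start window, control peaks covered 100%, those at 30 min 87.9% and those at 1 h 88%. Among the 3 genes covered beyond their start, CDKN1B alone had a lower cover with flanks at both times than in control, by -4.67 and -0.50 points; over the gene span alone the change at 1 h was 3.18 points, so its direction depends on the window. At 1 h it also turned, to 0.242 points, with peaks of at least 300 bp only. In the RefSeq table of GRCh38 GPR19 comes before CDKN1B, and LOC105369663 and APOLD1 follow it, so the cover past its end cannot be assigned to it alone.

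TOP2A, mapped without merbarone, had 2 peaks in these regions, both inside wide control Pol II peaks after a gene start. That in CCND1 was 108 bp wide on chromosome 11 from 69459379 to 69459486, 3506 to 3613 bp after the start. That in CDK6 was 175 bp wide on chromosome 7 from 92462538 to 92462712, 3229 to 3403 bp after the start of the span. Both places lay under Pol II peaks in all 3 Pol II lists. CDKN1B, whose control cover was as full as that of CCND1, held none, with the nearest TOP2A peak 153.677 kb away. For CCND2 the nearest lay 1071 kb away, and for the upstream site 134.646 kb. Of all domains, 9.12% held a TOP2A peak, and 2 of the 5 that these genes and the site touch did.

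The 5 domains were set beside all domains with peaks in both lists compared. From control to 30 min, 2 of the 5 stood at least 10 points higher, the upstream site and the end of CDK6 (17.7 points), where 21.4% of all domains did. None of the 5 stood at least 10 points lower, where 3.15% did. From control to 1 h, 1 of the 5 stood at least 10 points higher, the start of CDK6 at 13.4 points, where 49.7% of all did. The upstream site, at -24.5 points, was the 1 that stood as much lower, where 2.3% did. From 30 min to 1 h the start of CDK6 stood 12.5 points higher, and 34.8% of all domains stood at least 10 higher. The upstream site and the end of CDK6 changed by -70.4 and -12.1 points, and 5.83% of all stood at least 10 lower. The domains of CCND1 and CDKN1B changed by 2.65 and -0.94 points at 30 min and by 8.94 and -2.36 points at 1 h. They are 37.544 and 23.923 kb wide and reach 21.281 and 15.617 kb past the gene ends, so these values are not those of the genes alone. The median change of the 5 was 2.65 points at 30 min and 5.56 points at 1 h, against 3.78 and 9.91 over all domains. CCND2 lies in no domain of 5 kb.

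**Figure D5:**
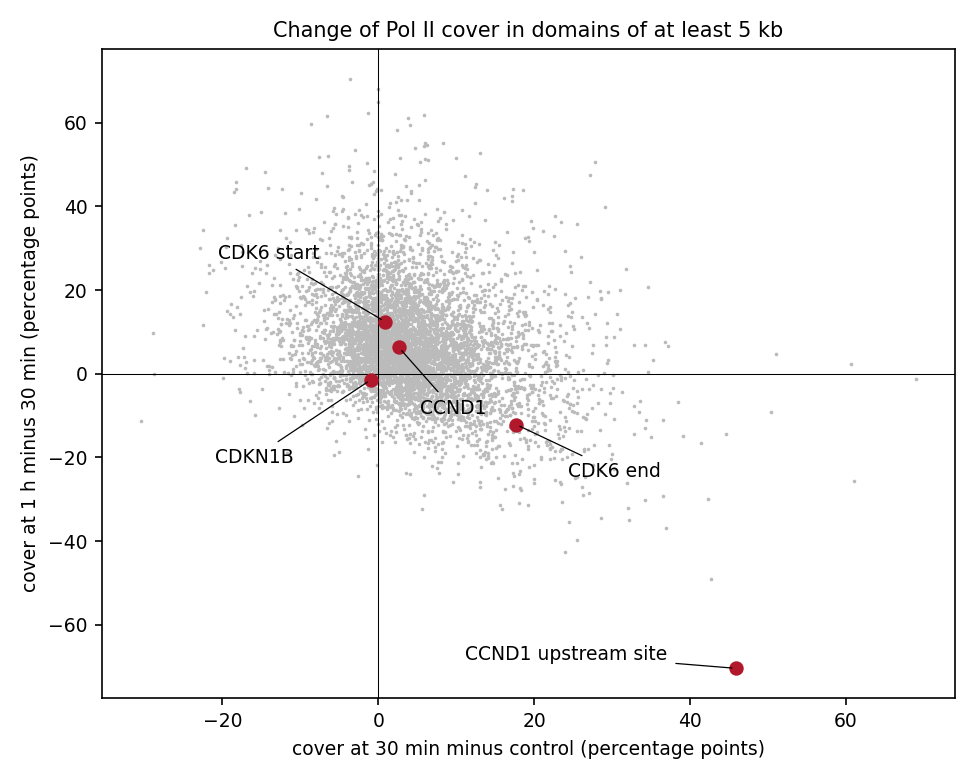
Change of Pol II cover from control to 30 min (horizontal axis, percentage points) and from 30 min to 1 h (vertical axis, percentage points) in all 5902 domains of at least 5 kb, with the 5 that touch the genes or the site in red. The upstream site stands apart at 45.9 and -70.4 points, and the domains of CCND1, CDKN1B and the start of CDK6 lie among the others.

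Counted by peak, 19 of the 50 peaks of the genes and the site at 30 min overlapped no control peak, where 34.1% of that whole list did, and 2 of 16 at 1 h, where 44.1% did. In the other direction, 7 of 40 control peaks had no partner at 30 min (26.1% of the whole list) and 17 of 40 had none at 1 h (22.3%). Of the 50 peaks at 30 min, 24 had no partner at 1 h (23.1% of the whole list), 15 at the upstream site and 9 at CDK6. Both comparisons with control used the same control list, and these contrasts were known when the members were chosen, so nothing is read from the shares.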

How the data were processed

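Pol II and TOP2A ChIP-seq peaks of hTERT RPE-1 cells were analysed as 4 deposited lists. Per the submitters' processing notes, the authors worked on hg19 with Bowtie 1.2.0, MACS2 and deepTools 2.4.1. The way libraries were merged, the control used in calling and the cutoff are not stated there. The deposited values are peak starts and ends in bp, with no score. The 3 IgG libraries were not analysed here. Per the labels' protocols, chromatin was fixed with 1% formaldehyde for 10 min and libraries were made by ChIPmentation.

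The first base of a chromosome was taken as 0 in the lists, and positions are printed counted from 1. Gene spans came from the member definition; their lengths differed by 2 to 54 bp from those in the RefSeq table of GRCh38, which supplied names, gene order and promoter sequences (2 of the 4 genes matched). The other genes of the pathway were not analysed here, as no annotation of hg19 was used. Cover is the percent of a window's bases under peaks. Peaks were partners when they overlapped by at least 1 bp. The named items are all 4 genes and the site, with the widest peaks, peaks without a control partner, TOP2A peaks, and the 3 domains nearest over the 3 cover values.

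The members, lists and windows were chosen with earlier results of these data known. Alternatives changed the limits of the lists (joining over gaps of up to 37 bp and dropping peaks narrower than 159 bp, as in the 1 h list), the smallest peak (300 bp), the windows, the overlap and the domain gap. Interval functions were checked against bedtools 2.31.1 and on simulated data, and passed 6 of 6 checks. Software was Python 3.11.15, matplotlib 3.10.9, pandas 2.3.3, numpy 2.4.6 and scipy 1.17.1.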

Additional observations from a re-analysis of the deposited data

How the results depend on the processing

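Of the values recomputed under an alternative, 62 stayed near the reported value and 41 moved further. Near meant within the 95% binomial interval of a reported cover, the 95% normal interval of a difference in cover, or 1.5 times a count. Both intervals take neighbouring bases as independent. Some of the 62 had little room to move, such as the starts of CCND1 and CDKN1B at 100% and the window past the end of CCND2 at 0%. The direction from control turned for the start window of CDK6 at 30 min, for the windows past the end of CCND1 and CDKN1B at 30 min, and, over genes with their flanks, for CCND1 at 30 min and for CDK6 and CDKN1B at 1 h. Each condition has 1 list, so no replicate could be left out. No paired analysis was possible because the lists pool their libraries. Depth is unknown and limits every value.

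With the limits of the 1 h list, the change from control was 0.815 points for CCND1 at 30 min, 0.046 for CDK6 at 1 h, and 47.3 and -22.1 for the upstream site at 30 min and 1 h. The 5 kb past the end were then covered over 54.1% for CCND1 at 30 min and 55.0% for CDK6 in control. With peaks of at least 300 bp only, the changes were -1.93 for CCND1 at 30 min, 0.343 and 0.260 for CDK6, -4.13 and 0.242 for CDKN1B, and 41.2 and -4.66 for the upstream site. Over gene spans alone they were 0.344 and 0.591 for CCND1, 0.047 for CCND2 at 30 min, 0.208 for CDK6 at 30 min, and -6.29 and 3.18 for CDKN1B. Within the limits of its control peaks, an alternative chosen after seeing the data, the upstream site changed by 43.2 and -32.5 points.

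With 250 bp on either side of the start, cover in control, at 30 min and at 1 h was 62.3%, 76.0% and 72.9% for CCND2, and for CDK6 it was 94.2% in control and 100% at 30 min. With 1 kb it was 15.6%, 19.6% and 21.3% for CCND2 and 77.8%, 65.0% and 79.5% for CDK6. With 10 kb past the end it was 65.7%, 60.0% and 97.1% for CCND1, 33.2%, 43% and 37.1% for CDK6, and 54.8%, 60.1% and 50.2% for CDKN1B. With an overlap of 50% of the peak, 5 peaks at 1 h had no control partner in place of 2. The cause of these shifts was not tested.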

Other observations

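The domains most like those of the genes in Pol II cover over the 3 lists lay elsewhere in the genome, and several were shorter or longer than the member. For CCND1, with 77.0%, 79.6% and 85.9% covered in the control, 30 min and 1 h lists, the nearest lay on chromosome 7 from 134846349 to 134856031, at a distance of 2.45 points. For CDKN1B, with 68.2%, 67.3% and 65.8%, it lay on chromosome 20 from 3758175 to 3767686, at 1.52 points. For the start of CDK6 it lay on chromosome 16 from 4420653 to 4438801, at 1.21 points, and for its end on chromosome 19 from 56592199 to 56598711, at 2.66 points. These distances are far below the 18.4 points of the domain nearest to the site upstream of CCND1, whose course few domains shared. The site was chosen for that course, so nothing is read from this contrast.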
